A study of Homo sapiens with 15 samples.

Results

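Many human introns can be removed with either of a pair of close splice sites, and the introns of such pairs are described here. An intron was a member when it was assigned to 1 gene and shared exactly 1 end with another intron of the same table whose other end lay 1 to 100 nt away. The choice used only positions among the listed introns. The listing itself depends on reads, as every listed intron has at least 20 junction reads in every library of its table. It took 9403 of the 111143 introns listed in any of 4 deposited tables, 6766 of them in all 4 tables. By table, KO-1 to KO-4, members were 7306 of 90007 introns, 8600 of 100612, 8273 of 97525 and 8580 of 101710.

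The samples were 15 polyA RNA libraries of HCT116, an established human colon carcinoma cell line. There were 5 groups of 3 libraries: wild-type HCT116 cells (WT) and the bktRNA1-deficient clones, labelled KO-1 to KO-4. All groups share the HCT116 background and the same culture medium. Each clone is 1 isolate and WT is 1 line, so a difference between a clone and WT cannot be told apart from a difference between isolates. The labels state 3 independent experiments, and each table sets the 3 libraries of 1 clone against the same 3 WT libraries. The level of bktRNA1 was not analysed here.

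An intron begins at a donor site (its 5′ end), which pairs with U1 RNA early in splicing, and ends at an acceptor site (its 3′ end), whose AG is bound by U2AF. Where a second usable site lies close by, the choice between them adds or removes a short stretch of mRNA. Acceptors that repeat an AG in tandem at the smallest spacing, called NAGNAG acceptors, are the best known example. A small class of introns is removed by the minor spliceosome, which holds U11 and U12 RNA in place of U1 and U2 and reads a long conserved donor. Some of these introns start with AT and end with AC, and others start with GT and end with AG.

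In each pair the longer intron uses the outer site and the shorter intron the inner site. Reads spliced at the inner site therefore keep the stretch between the sites in the mRNA. The sequences below carry the results that follow. For donors, lower case marks the last bases of the upstream exon and capitals mark the start of the stretch between the outer and the inner donor. For acceptors, capitals mark the end of the stretch between the inner and the outer acceptor, and lower case marks the exon that both forms share. They are GENCODE v29 transcript sequences on GRCh38 (hg38), 5′ to 3′, limited to 30 bases.
CCDC84 outer donor, shown because the split moved in all 4 clones: tgtcttagagGTTGGTTTCCCTCGGAGGAT
HNRNPC outer donor, called in 3 clones: agatgtacggGTCAGTAACAGAACACCCTT
SMARCB1 outer donor, called in 3 clones: tcgtcacatgGTAAAAAAACAAAACCTAAC
PARK7 outer donor, called in KO-3 and KO-4: ctggtgtgggGTGAGTGGTACCCAACGGGC
RPL22L1 outer acceptor, called in KO-3 and KO-4: TTTTTTCTGTTTTAAAATAGgagcaatttc
LSG1 outer acceptor, an intron that ends in AC at either site: AAGCTACCTATGGCATTAACatcataacgc
CCDC43 outer acceptor, an intron ending in AC whose retention moved: ATCACTTACtgaagcagat
GMFB outer acceptor, an intron ending in AC whose retention moved: AACcttcattgtg
LRBA outer acceptor, where the clones differed from each other: TATCTCCTCCTGCAGagtccattga

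The pairs were read as the spliced junction reads at each of the 2 sites and the junction reads of unspliced RNA at each intron. The inner share is the percentage of spliced reads of a pair that used the inner site. Retention of an intron is unspliced as a percentage of unspliced plus spliced reads, each divided by the effective length deposited for it. Pair retention, a measure added after the data were seen, sets the unspliced reads of the shorter intron against the spliced reads at both sites. The split was the log2 odds of the inner against the outer site, clone minus WT. It was tested with a quasi-binomial model whose dispersions were moderated in limma. A pair or intron was called at a Benjamini-Hochberg adjusted p under 0.05 over all pairs or introns tested. Pairs needed a mean of 10 spliced reads per library at each site.

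The tables held 4030, 4793, 4584 and 4772 such pairs for KO-1 to KO-4, and 5236 different pairs in any table. Alternative acceptors outnumbered alternative donors in every table, with 2286 against 1744 for KO-1 and 2730 against 2042 for KO-4. Acceptors 3 nt apart gave 324 to 412 pairs per table, and donors 4 nt apart gave 64 to 80 pairs. The stretch between acceptors was coding in 2236 of 2997 pairs, and 52.1% of those coding stretches were a multiple of 3 nt long. Between donors it was coding in 1106 of 2239 pairs, of which 48.7% were a multiple of 3. Stretches that were exonic but not coding were a multiple of 3 in 39.3% of 595 acceptor pairs and 29.9% of 926 donor pairs. Pairs are not independent where they share an intron: 335 to 426 groups of linked introns per table held more than 1 pair, and the largest held 17.

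Spliced reads over all introns listed came to 15458723 to 18253016 per KO-1 library and 24478463 to 32049987 per library of the other clones. WT libraries held 25575933 to 31242613, depending on the table. Member introns took 6.83 to 7.90% of them. Introns of 6 of 10 colon epithelial marker genes were listed in WT, with 120332 to 151314 spliced reads in all. Introns of 4 of 9 genes of mesenchymal, leukocyte and endothelial cells were listed, with 2283 to 2955 reads, and COL1A2, PTPRC, CD3E, PECAM1 and KDR had none listed. VIL1, CEACAM5, LGR5 and MUC13 of the epithelial genes had none listed either. The totals rest on few genes: keratin KRT8 alone had 63348 to 78603 reads. The mesenchymal genes COL1A1 and FN1 had 1084 to 1544 and 953 to 1069, near the 1244 to 1622 of epithelial CDH1 and above the 79 to 120 of CDX2.

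In WT, the longer intron of a pair counted reads of the shorter form as retention once the sites were 10 nt or more apart. Over the 2560 such pairs with at least 100 inner-site reads, the longer intron had a median of 1.04 extra unspliced reads, compared with its partner, for each read spliced at the inner site, with an interquartile range of 0.934 to 1.15. The median was 1.06 for acceptors and 0.998 for donors. Over the 593 pairs with closer sites it was 0. The step fell between 9 nt, with medians of 0.0302 for acceptors and 0.0297 for donors, and 10 nt, with 1.03 and 0.988.

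**Figure D1:**
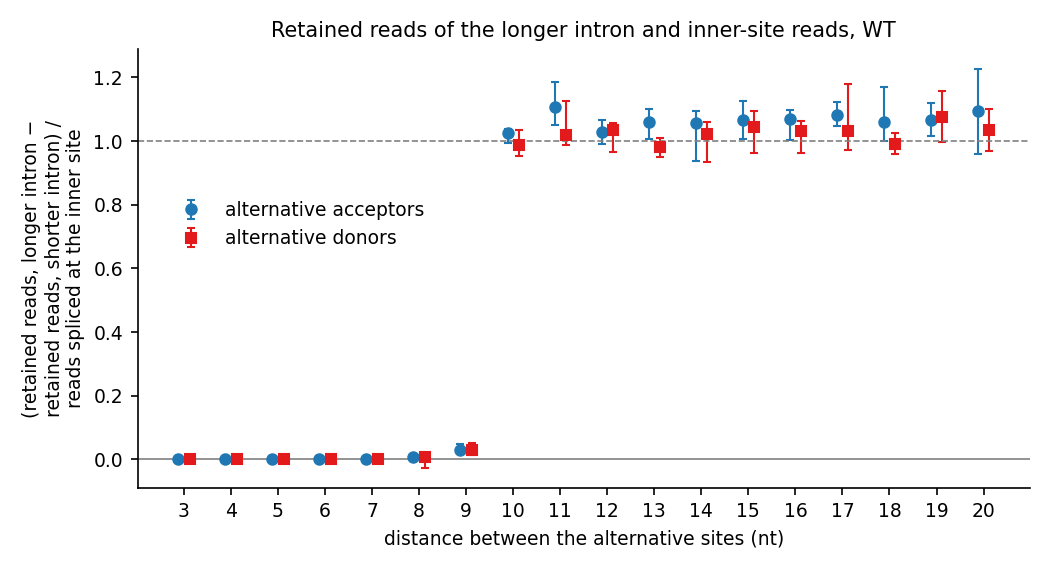
Extra unspliced reads of the longer intron per read spliced at the inner site in WT (y axis, a ratio of read counts) against the distance between the sites in nt (x axis). Points are medians over pairs with at least 100 inner-site reads in the 3 WT libraries summed, bars are interquartile ranges, and the medians step from 0.0302 at 9 nt to 1.03 at 10 nt for acceptors.

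The levels of retention in WT followed the same step. Among pairs with sites 10 nt or more apart and at least 10 spliced reads per library at each site, 1151 pairs, median retention was 56.1% for the longer intron, 7.61% for the shorter intron and 2.67% for the pair. For the 547 pairs with closer sites it was 6.29%, 3.76% and 1.96%. Over all 1698 of these pairs the library medians of the longer intron were 34.6, 33.2 and 36.5%, with a mean of 34.8% ± 1.63 (SD, n = 3). Those of the shorter intron were 5.67, 5.06 and 6.63%, with a mean of 5.78% ± 0.790 (SD, n = 3). The longer intron counts inner-site reads as unspliced once the sites are 10 nt or more apart. Each intron is also set against the spliced reads of its own site only. These 2 sets of medians therefore do not compare levels of unspliced RNA. What made them differ among pairs with closer sites was not tested. All 9403 members had median retention of 53.9, 51.7 and 57.2% in the WT libraries, against 0.862, 0.661 and 1.04% for 98173 other introns of 1 gene. The member medians include these longer introns and are not a measure of unspliced RNA alone.

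The inner site took the larger part of the spliced reads in WT at the median pair. The median inner share over the 1698 pairs was 60.1, 60.6 and 61.7% in the 3 WT libraries, a mean of 60.8% ± 0.818 (SD, n = 3). Pairs with deeper coverage were closer to an even split, with 52.8% at a mean of 50 reads or more per library at each site. These pairs all had a mean of 10 or more reads per library at each site, so rarely used sites do not enter the median.

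Acceptors 3 nt apart hold the NAGNAG sites and a few pairs with other letters, and their median split was close in all groups. The stretch between these acceptors read CAG in 318 of 429 pairs, AAG in 54, TAG in 45 and GAG in 10. The median WT inner share was 58.7% over 247 pairs with an outer CAG, 68.4% over 31 with TAG, 76.3% over 40 with AAG and 85.6% over 7 with GAG. Pairs of each triplet varied widely, with interquartile ranges of 36.7 to 75.2% for CAG, 57.6 to 75.6% for TAG, 55.6 to 91.6% for AAG and 30.5 to 92.4% for GAG, and the difference between triplets was not tested. The medians had that order in each of the 3 WT libraries, with 58.04 to 58.62% for CAG and 84.1 to 87.3% for GAG. Over the 234 such pairs tested in all 4 comparisons, the library medians lay between 58.6 and 61.4% in all 15 libraries. All 689 acceptor pairs tested in the 4 comparisons had medians of 63.1 to 65.8%, and 535 donor pairs of 57.1 to 60.3%.

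**Figure D2:**
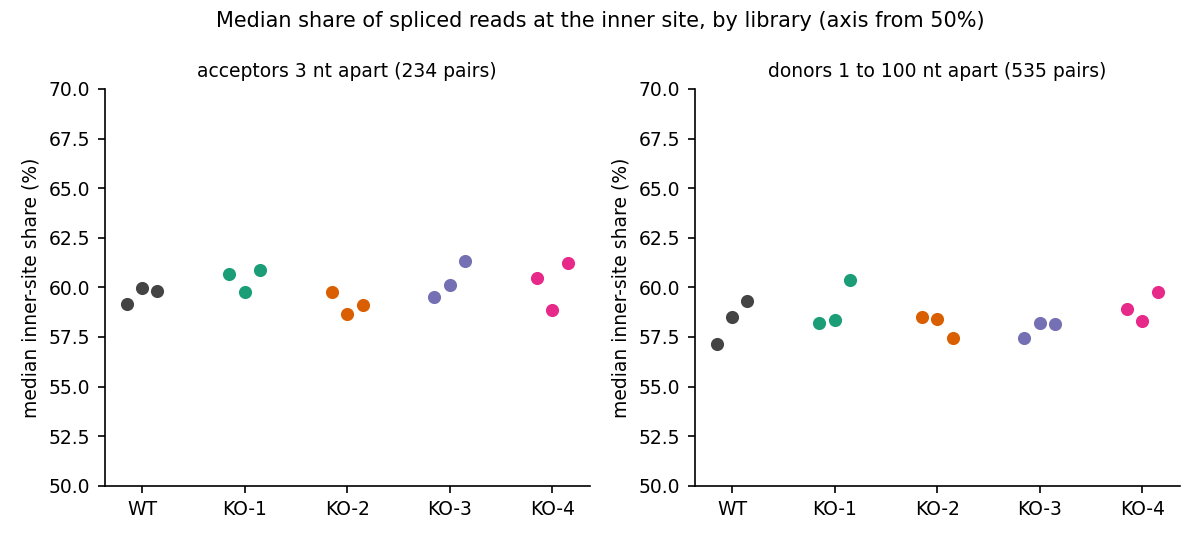
Median share of spliced reads at the inner site in percent (y axis, from 50%) for each of the 15 libraries (points), by group (x axis), for 234 acceptor pairs 3 nt apart and 535 donor pairs. Acceptor medians run from 58.6 to 61.4% and donor medians from 57.1 to 60.3%, and the groups overlap in both panels.

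Single pairs with many reads show how closely the split was held. In PTMA, which encodes prothymosin alpha, acceptors 3 nt apart gave inner shares of 9.4, 9.3 and 9.3% in WT and 8.8 to 9.7% over the 12 clone libraries. CNBP, a nucleic acid-binding zinc finger protein, gave 28.7, 29.7 and 27.8% in WT at acceptors with an outer AAG, and 25.3 to 30.3% in the clones. Neither of these splits was called in any clone, and the larger of their changes was -0.18 ± 0.08 (SE) for CNBP in KO-1.

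PTMA outer acceptor, shown as a NAGNAG site with a rare outer triplet: GAGaatgaggaaa
CNBP outer acceptor, where the inner site read TTG and so has no tandem AG: AAGcctgctataa

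Donors 4 nt apart leaned the other way, toward the outer site: over 18 pairs tested in all 4 comparisons the library medians of the inner share lay between 24.95 and 40.1%. NDUFS5, a subunit of respiratory complex I, had inner shares of 23.8, 22.9 and 26.5% in WT and 20.4 to 26.3% in the clones. UQCRQ, a subunit of respiratory complex III, had 14.2, 15.3 and 13.1% in WT and 10.8 to 14.6% in the clones. SRSF5, an SR splicing factor, used mainly the inner donor, with 78.8, 77.5 and 78.4% in WT and 75.3 to 79.9% in the clones. No split of these 3 genes was called in any clone.

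Against WT, few pairs changed their split in any clone. In KO-1, 3 of 1279 pairs were called, 2 toward the inner and 1 toward the outer site, which is 0.235% of the pairs tested. KO-2 had 20 of 1669, 8 inner and 12 outer, or 1.2%. KO-3 had 7 of 1553, 3 inner and 4 outer, or 0.451%. KO-4 had 20 of 1647, 10 inner and 10 outer, or 1.21%. The members are all of the pairs tested, so these shares are their own background. An unadjusted p under 0.05 was reached by 111, 167, 137 and 162 pairs.

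The median change over all pairs tested lay between -0.02 and 0 (log2 odds) in each clone, at -0.004, -0.02, -0.02 and -0.004. The inner share differed from WT by a median of 1.82, 1.70, 1.71 and 1.74 percentage points in either direction in KO-1 to KO-4. Among called pairs the median difference was 11.0, 7.22, 6.22 and 5.80 points. A limma fit of the log2 ratio of reads called 0, 2, 0 and 1 pairs, so most calls below rest on the quasi-binomial model. Counts also moved with single libraries: without the third KO-2 library listed, KO-2 had 1 inner and 3 outer calls, and without the first KO-3 library, KO-3 had 0 outer calls.

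Over the clones 37 pairs of 36 genes made 50 calls, 28 of them in 1 clone, 6 in 2 clones, 2 in 3 clones and 1 in 4 clones. These counts share the 3 WT libraries and are given as a description. No pair was called in both directions. Of the 21 acceptor pairs called, 17 moved toward the outer site and 4 toward the inner site. Of the 16 donor pairs called, 11 moved toward the inner site and 5 toward the outer site. By clone, acceptor calls were 0 inner and 1 outer in KO-1, 0 and 9 in KO-2, 1 and 2 in KO-3, and 3 and 7 in KO-4. Over all pairs tested the median change was -0.03 to -0.005 for acceptors and -0.02 to 0.02 for donors. A lean of either class toward 1 site was not tested. The stretch between the sites was coding in 23 of the 37 pairs, and a multiple of 3 nt long in 15 of these 23. Over all pairs listed it was coding in 74.6% of acceptor and 49.4% of donor pairs, and 52.1% and 48.7% of those stretches were a multiple of 3.

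CCDC84 held the pair called in all 4 clones. The gene, also named CENATAC, encodes a protein of the minor spliceosome. Its alternative donors lie 28 nt apart in coding sequence, not a multiple of 3, at the start of the introns chr11:119011284-119011938 and chr11:119011312-119011938. The inner share was 21.8, 28.9 and 21.8% in the WT libraries, 51.9, 45.1 and 52.0% in KO-1, and 61.0, 61.1 and 60.5% in KO-2. It was 54.2, 72.1 and 53.7% in KO-3 and 65.0, 67.3 and 62.3% in KO-4. No clone library fell as low as the highest WT library, and the most used donor was the outer one in WT and the inner one in KO-2, KO-3 and KO-4.

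The change of the CCDC84 split was 1.63 ± 0.28 (SE, log2 odds) in KO-1, with an adjusted p of 0.000161. In KO-2 it was 2.29 ± 0.27, with an adjusted p of 5.41e-08, and in KO-3 2.25 ± 0.30, with an adjusted p of 3.44e-10. KO-4 gave 2.55 ± 0.28, with an adjusted p of 4.35e-15. Leaving out any 1 of the 6 libraries of a comparison kept the call in each clone. With limma the adjusted p was 0.0647, 0.00777, 0.302 and 0.00500, so the call was lost in KO-1 and KO-3. The reads behind it were few: spliced reads at the inner donor were 32, 35 and 26 in WT and 41 to 115 per clone library, and those at the outer donor 115, 86 and 93 in WT and 31 to 56 in the clones. In raw counts, inner-donor reads were more numerous and outer-donor reads fewer in the clones. WT and clone libraries did not overlap at either site, before any scaling to depth. KO-1 libraries held fewer spliced reads in all, 15458723 to 18253016 against 25575933 to 30687778 for WT in that comparison. The lower outer-donor counts of KO-1 therefore cannot be told apart from its lower depth. No difference among the 4 clones was called for this pair, with an adjusted p of 0.120.

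Retention of the longer CCDC84 intron rose with that split. It was 16.4, 22.5 and 20.9% in WT, 43.9, 37.5 and 43.0% in KO-1. KO-2 had 50, 49.7 and 48.1%, KO-3 had 41.9, 60.5 and 42.1%, and KO-4 had 52.6, 56.2 and 49.7%. All 4 changes were called, at 1.52 ± 0.30, 1.99 ± 0.30, 1.90 ± 0.32 and 2.21 ± 0.29. Pair retention, which counts inner-site reads as spliced, was 6.67, 6.20 and 9.16% in WT and 5.45 to 10.5% over the 12 clone libraries. Its changes were 0.50 ± 0.37, 0.11 ± 0.35, 0.11 ± 0.36 and -0.05 ± 0.35, and none was called. The shorter intron had 24.7, 18.6 and 31.6% in WT and 8.47 to 18.8% in the clones, with a called change only in KO-4, of -1.48 ± 0.41. That call was lost in 5 of the 6 fits that left out 1 library, with adjusted p up to 0.149.

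HNRNPC, which encodes a nuclear protein that coats uridine-rich pre-mRNA, moved the other way in 3 clones. Its donors lie 39 nt apart in coding sequence, in the introns chr14:21230367-21230996 and chr14:21230367-21230957 on the minus strand. The inner share was 35.5, 37.1 and 37.1% in WT and 36.0, 34.4 and 36.2% in KO-1. It was 29.4, 31.1 and 31.9% in KO-2, and KO-3 had 30.5, 34.9 and 31.6%. KO-4 gave 29.97, 31.5 and 32.0%. Libraries of KO-2, KO-3 and KO-4 were all below WT, while KO-1 overlapped it.

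The HNRNPC changes were small and precise: -0.37 ± 0.05 in KO-2 (adjusted p 1.42e-05), -0.27 ± 0.05 in KO-3 (0.000306) and -0.35 ± 0.05 in KO-4 (6.07e-09). KO-1 gave -0.07 ± 0.06. Without the KO-3 library listed first the adjusted p for KO-3 was 0.351, and the calls in KO-2 and KO-4 held in all 6 such fits. With limma none held, with adjusted p of 0.564 to 0.718. Retention of the longer intron fell in the same 3 clones, by 0.36, 0.31 and 0.36, and pair retention was called in none.

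SMARCB1, a core subunit of the SWI/SNF chromatin remodeller, has donors 27 nt apart in coding sequence, a multiple of 3, in the introns chr22:23791868-23793558 and chr22:23791895-23793558. The inner share was 43.0, 48.9 and 46.0% in WT, 54.1, 59.9 and 57.0% in KO-1, and 57.6, 50.2 and 56.8% in KO-2. It was 42.1, 44.7 and 47.2% in KO-3 and 52.3, 55.1 and 51.4% in KO-4. KO-1, KO-2 and KO-4 were above every WT library, and KO-3 overlapped WT. The changes were 0.63 ± 0.13, 0.52 ± 0.12 and 0.39 ± 0.10 in these 3 clones, against -0.10 ± 0.11 in KO-3. The call was lost without the KO-1 library listed second (adjusted p 0.435), in KO-2 without the third of its libraries (0.240) or the WT library listed first, and in KO-4 in 4 of 6 such fits. With limma none of the 3 calls held, with adjusted p of 0.353 to 0.592.

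PARK7, which encodes the redox-sensitive protein DJ-1, has donors 58 nt apart in exonic sequence that is not coding, in the introns chr1:7961736-7962762 and chr1:7961794-7962762. The inner share was 62.0, 61.4 and 62.7% in WT, 66.7, 66.2 and 66.7% in KO-1, and 61.1, 63.4 and 62.3% in KO-2. It was 70.8, 70.2 and 70.04% in KO-3 and 68.6, 69.3 and 69.7% in KO-4. The 3 libraries of each group lay close together, and those of KO-1, KO-3 and KO-4 were above all WT libraries. The change was 0.54 ± 0.09 in KO-3 (adjusted p 9.61e-07) and 0.46 ± 0.08 in KO-4 (2.72e-05), and both calls held without any 1 library. KO-1 gave 0.29 ± 0.09, with an adjusted p of 0.33, and KO-2 0.02 ± 0.08. With limma the adjusted p was 0.482 in KO-3 and 0.570 in KO-4.

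RPL22L1, a ribosomal protein gene similar to RPL22, used its inner acceptor rarely. The acceptors lie 67 nt apart, and the introns are chr3:170868135-170868297 and chr3:170868202-170868297 on the minus strand. Its share of spliced reads was 4.36, 4.04 and 3.77% in WT, 2.23, 3.40 and 2.24% in KO-3, and 2.50, 2.23 and 2.26% in KO-4. All 12 clone libraries were below WT, with 2.30 to 3.12% in KO-1 and 2.47 to 3.50% in KO-2. The change was called in KO-3, at -0.66 ± 0.15, and KO-4, at -0.83 ± 0.18. The KO-3 call was lost without the first or the third of its libraries, with an adjusted p up to 0.441, and limma called neither clone (0.518 and 0.374).

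Other pairs called in 2 clones were named after their values were seen. ANAPC5, a subunit of the anaphase-promoting complex, moved toward the outer acceptor in KO-2 and KO-4, with inner shares of 81.7, 84.4 and 86.1% in WT, 75.3, 75.6 and 74.6% in KO-2, and 73.9, 78.7 and 78.9% in KO-4. TMEM106C, which encodes a membrane protein, moved toward the outer donor, from 59.5, 59.96 and 65.5% in WT to 50.5, 49.2 and 52.3% in KO-2 and 53.7, 50.7 and 54.5% in KO-4. In ENY2, shared by the SAGA and TREX-2 complexes, the inner donor gained in KO-2, at 0.51 ± 0.12, and KO-4, at 0.54 ± 0.12. RPL15, a large-subunit ribosomal protein gene, gained at an inner donor 66 nt away, at 0.31 ± 0.08 and 0.33 ± 0.09 in the same 2 clones. Ribosomal protein genes have near-identical copies in the genome, so the RPL15, RPL18 and RPL22L1 counts are less certain.

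Calls in 1 clone ranged from -3.77, for LSG1 in KO-2, to 1.36 ± 0.30, for an acceptor pair of RPL15 in KO-4, on the log2 scale. FDPS, which makes farnesyl diphosphate for sterol synthesis, moved toward its outer acceptor in KO-4, from 72.5, 71.4 and 73.3% inner in WT to 64.4, 63.6 and 67.2%, a change of -0.50 ± 0.09. TAF15, an RNA-binding protein associated with TFIID, moved toward the inner of donors 9 nt apart in KO-4, from 74.6, 75.2 and 75.9% to 79.2, 81.8 and 81.6%, a change of 0.47 ± 0.09. The WT and KO-4 libraries did not overlap in either gene. PIDD1, a death-domain protein, moved toward its inner donor in KO-2, from 53.7, 47.6 and 56.8% to 67.1, 66.0 and 68.9%, at 0.90 ± 0.22. Its call was lost in 4 of the 6 fits without 1 library, with an adjusted p up to 0.289. RPL18 had the only outer call in KO-1, where the inner share was 99.4, 99.1 and 99.3% against 99.7, 99.8 and 99.8% in WT, a change of -1.80 ± 0.27 that held without any 1 library and was lost with limma (adjusted p 0.0877). These reads at the outer acceptor, 8 nt away, numbered 22, 22 and 14 in WT and 35, 54 and 31 in KO-1.

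LSG1, a GTPase that works late in assembly of the large ribosomal subunit, has an intron that starts ATATCCTT and ends in AC at either of 2 acceptors 51 nt apart. The introns are chr3:194648754-194650880 and chr3:194648805-194650880 on the minus strand, and the stretch between them is coding. The inner share was 99.1, 98.8 and 97.8% in WT, 94.8, 91.9 and 88.2% in KO-1, and 76.2, 82.9 and 86.5% in KO-2. It was 87.6, 86.6 and 91.4% in KO-3 and 91.6, 81.9 and 79.3% in KO-4. Every clone library was below every WT library. The outer acceptor had only 1, 2 and 3 spliced reads in WT, 17 to 25 per KO-2 library and 4 to 23 per library of the other clones. The pair therefore reached the read minimum only in the KO-2 comparison, and there through the KO-2 reads. The change in KO-2, -3.77 ± 0.72, counts among the calls above and is given as a description, as are the shares in the other 3 clones.

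**Figure D3:**
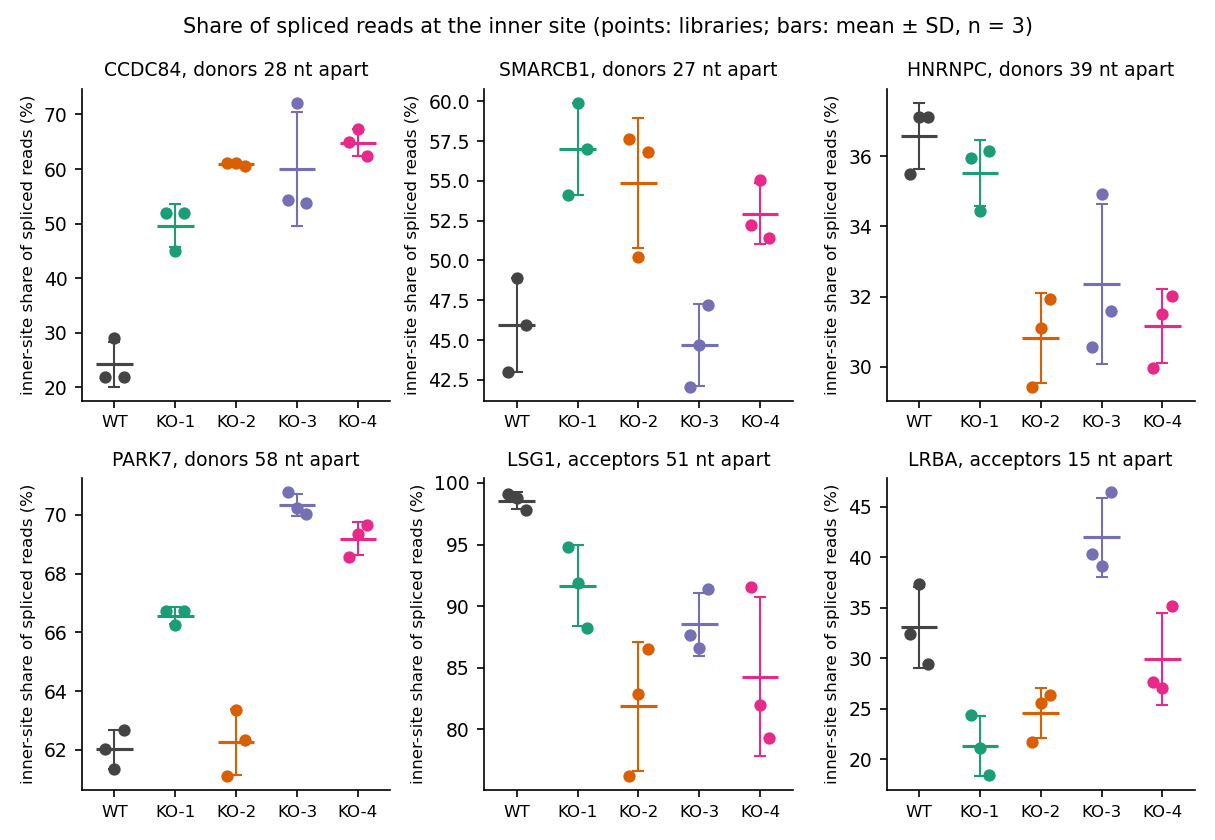
Share of spliced reads at the inner site in percent (y axis, scaled to each gene and not from 0) by group (x axis) for CCDC84, SMARCB1, HNRNPC, PARK7, LSG1 and LRBA. Points are libraries, and lines with bars are the mean ± SD of 3 libraries. CCDC84 runs from 21.8 to 28.9% in WT and from 45.1 to 72.1% in the clones.

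The clones also differed from each other, a comparison that uses no WT library. The split differed among the 4 clones in 58 of 1316 pairs, 4.41% of those tested, with 23 acceptor and 35 donor pairs of 54 genes. An unadjusted p under 0.05 was reached by 205 pairs, limma called 7, and 22 of the 58 were also called against WT in some clone. The mean inner share of the 58 pairs spanned a median of 5.50 percentage points between the highest and the lowest clone, from 0.573 to 22.7. The 2 widest spans were in TRAPPC6A, a subunit of a vesicle tethering complex, and LRBA.

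LRBA, a large vesicle trafficking protein, has coding acceptors 15 nt apart, a multiple of 3, in the introns chr4:150321369-150325808 and chr4:150321384-150325808 on the minus strand. Inner shares were 24.4, 21.1 and 18.5% in KO-1. KO-2 had 21.8, 25.6 and 26.3%, KO-3 had 40.3, 39.2 and 46.4%, and KO-4 had 27.6, 27.02 and 35.2%. KO-3 lay above the other 3 clones, and WT, with 32.4, 37.4 and 29.4%, lay below KO-3, above KO-1 and KO-2, and overlapped KO-4. The adjusted p for the difference among clones was 2.36e-09, and no clone differed from WT by the adjusted test, with -0.88 ± 0.23 in KO-1 and 0.52 ± 0.17 in KO-3. TRAPPC6A, named after its values were seen, had mean inner shares of 66.6% for KO-1, 50.6% for KO-2, 49.4% for KO-3 and 43.9% for KO-4, with an adjusted p of 0.0272.

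Retention of single member introns moved in both directions in each clone, more often upward by the counts as deposited, an order that centring turned in 3 clones. In KO-1, 27 of 2756 members tested rose and 9 fell, where 1.29% of all 18804 introns tested rose and 0.175% fell. In KO-2, 43 of 3571 rose and 16 fell, with 1.3% and 0.304% over all introns. In KO-3, 17 of 3329 rose and 8 fell, with 0.558% and 0.155%. In KO-4, 59 of 3575 rose and 19 fell, with 1.54% and 0.429%. As a share of members, the rises were 0.980, 1.20, 0.511 and 1.65%, near the background of all introns. The falls were 0.327, 0.448, 0.240 and 0.531%, a little above it, and the differences from the background were not tested. The median change over members was 0.07, 0.04, -0.005 and 0.11 (log2 odds), against 0.13, 0.09, 0.02 and 0.16 over all introns. Centred on the median of all introns, 20, 24, 13 and 24 members rose and 22, 33, 8 and 43 fell, so that falls outnumbered rises in KO-1, KO-2 and KO-4. Without the third WT library listed, 64, 87, 28 and 135 rose.

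Calls are also given by the intron's role in its pair. Among longer introns with a partner 10 nt or more inside, 6, 13, 5 and 15 rose and 3, 10, 5 and 8 fell in KO-1 to KO-4, of 1037, 1357, 1262 and 1333 tested. Among longer introns with a closer partner, 8, 9, 5 and 12 rose and 1, 0, 0 and 2 fell, of 216, 294, 268 and 307. Shorter introns rose in 13, 16, 7 and 29 cases and fell in 5, 4, 1 and 9, of 1296, 1634, 1540 and 1667. As shares, the rises were 0.579, 0.958, 0.396 and 1.13% in the first class and 3.70, 3.06, 1.87 and 3.91% with a closer partner. For shorter introns they were 1.00, 0.979, 0.455 and 1.74%. Over all introns tested 1.29, 1.30, 0.558 and 1.54% rose, and the differences from these shares were not tested. Of the called longer introns in the first class, 2 of 9, 9 of 23, 3 of 10 and 7 of 23 also had a called split. Where pair retention could be tested for them, it was called in the same direction in 6 of 8, 11 of 22, 5 of 9 and 9 of 20.

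Across all tested pairs with sites 10 nt or more apart, the change in retention of the longer intron lay nearer to the change of the split than to that of pair retention. The median gap to the split was 0.11, 0.11, 0.10 and 0.12 in KO-1 to KO-4, and the gap to pair retention 0.25, 0.23, 0.22 and 0.24, over 538, 743, 663 and 723 pairs. It was nearer the split in 68.2, 62.6, 65.5 and 65.6% of these pairs. With sites under 10 nt apart the order turned, with median gaps of 0.29, 0.31, 0.24 and 0.28 to the split and 0.10, 0.10, 0.09 and 0.09 to pair retention. Longer-intron retention and the split share the inner-site reads once the sites are 10 nt apart, as the WT step above showed, so these changes are not separate measurements.

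**Figure D4:**
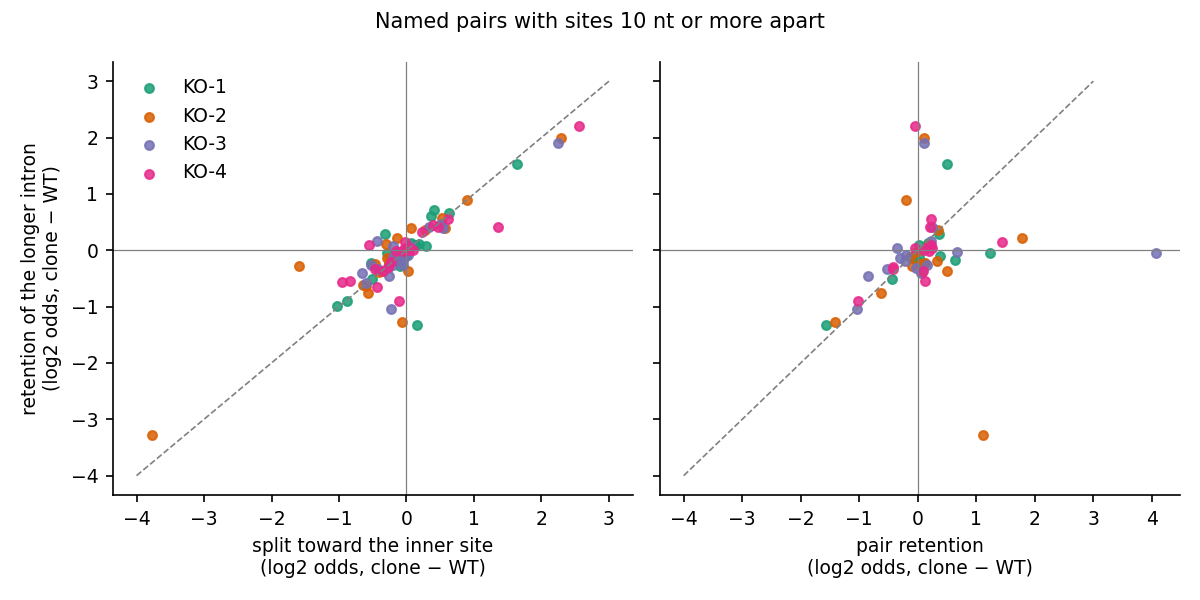
Change in retention of the longer intron (y axis, log2 odds, clone minus WT) against the change of the split (left) and of pair retention (right) for the named pairs with sites 10 nt or more apart. Each point is 1 pair in 1 clone and the dashed line marks equal change. CCDC84 stands at 1.63 to 2.55 on the left x axis and at -0.05 to 0.50 on the right.

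Pair retention gave a view of retention that the split between the 2 sites of a pair does not enter. Reads spliced at any other site inside the shorter intron are not among its spliced reads and could count as unspliced, which was not tested. It rose in 22, 32, 11 and 48 pairs and fell in 10, 7, 3 and 9, of 2108, 2744, 2551 and 2747 tested in KO-1 to KO-4. Called pairs made up 1.52% for KO-1, 1.42% for KO-2, 0.549% for KO-3 and 2.07% for KO-4. The median change was 0.11, 0.07, 0.006 and 0.15. Without the third WT library listed, whose retention was the highest of the WT libraries, the calls numbered 98, 62, 18 and 125, without the first library of the clone 14, 23, 7 and 16, and limma called 8, 1, 3 and 3. In these polyA RNA libraries, more unspliced RNA and less spliced RNA of a gene cannot be told apart from a ratio alone.

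Pair retention was called in 3 or more clones for 11 pairs of 10 genes, 10 of them higher and 1 lower. Those called higher in all 4 clones were CCDC43, SSR2, GMFB and LSG1, and each of these introns has a donor with at most 1 mismatch to the minor-class forms ATATCCTT and GTATCCTT. In CCDC43, where the acceptors are 9 nt apart in chr17:44680644-44682002 and nearly all reads used the outer one, pair retention was 11.8, 11.0 and 8.81% in WT and 51.6, 51.5 and 47.2% in KO-1. It was 35.6, 44.5 and 38.0% in KO-2, and KO-3 had 32.9, 39.5 and 38.5%. KO-4 gave 34.0, 32.1 and 39.8%. No clone library overlapped WT. The changes were 3.08 ± 0.31, 2.44 ± 0.28, 2.28 ± 0.27 and 2.18 ± 0.28, and all 4 calls held without any 1 library and with limma, with limma's adjusted p from 0.000772 to 0.0266.

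SSR2 encodes a subunit of the translocon-associated complex at the endoplasmic reticulum. Its acceptors lie 4 nt apart, in chr1:156015070-156018269 on the minus strand. Pair retention was 1.44, 1.96 and 0.897% in WT, 6.52, 6.16 and 4.84% in KO-1, and 3.67 to 5.22% in the other 9 clone libraries, with no overlap. The changes were 2.08 ± 0.25, 1.44 ± 0.25, 1.60 ± 0.24 and 1.62 ± 0.24, and the calls held without any 1 library. With limma the call held in KO-1, with an adjusted p of 0.0344, and was lost in the other clones, with 0.150 to 0.237. GMFB, an actin-regulatory protein of the ADF/cofilin family, has acceptors 3 nt apart, in chr14:54480957-54481408 on the minus strand, and the outer triplet is AAC.

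GMFB pair retention was 2.29, 3.32 and 5.07% in WT, 11.6, 11.7 and 11.8% in KO-1. KO-2 had 8.27, 13.4 and 9.50%, KO-3 had 9.71, 8.85 and 8.84%, and KO-4 had 9.21, 7.35 and 11.7%. Every clone library exceeded WT. The changes were 1.84 ± 0.33, 1.65 ± 0.34, 1.45 ± 0.32 and 1.46 ± 0.33. The split of the same reads was not called, with changes of -0.02 to 0.45 and inner shares of 9.15 to 15.3% in WT and 9.60 to 20.1% in the clones. Without 1 library the GMFB call was lost in 1 of 6 fits for KO-2, 4 of 6 for KO-3 and 3 of 6 for KO-4, with an adjusted p up to 0.167, and with limma it held in KO-1 only (0.0489, against 0.237 to 0.277).

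LSG1 pair retention was 12.2, 10.9 and 15.3% in WT, 32.5, 32.1 and 36.2% in KO-1. KO-2 had 26.6, 26.6 and 19.7%, KO-3 had 27.3, 23.7 and 28.2%, and KO-4 had 30.4, 42.6 and 29.97%. All clone libraries were above WT, with changes of 1.77 ± 0.29, 1.12 ± 0.27, 1.28 ± 0.26 and 1.83 ± 0.28. The KO-2 and KO-3 calls were each lost in 4 of 6 fits without 1 library, with adjusted p up to 0.211. With limma the call held in KO-1 only (0.0299, against 0.0709 to 0.313). The shorter LSG1 intron rose by 1.38 ± 0.29 in KO-2. The longer LSG1 intron, ending at the outer acceptor, had retention of 98.7, 98.2 and 97.0% in WT and 77.6, 83.9 and 84.0% in KO-2, a fall of 3.28 on the log2 scale. It reached the minimum of spliced reads only through its KO-2 reads, so this fall is given as a description. The fall counts among the KO-2 calls by role above.

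BCL2L1, which encodes the anti-apoptotic protein BCL-XL, and SPCS2, a subunit of signal peptidase, moved in opposite directions. BCL2L1 has acceptors 18 nt apart in exonic sequence that is not coding, in chr20:31722331-31722617 on the minus strand. Its pair retention was 2.52, 2.59 and 2.13% in WT, 5.42, 4.18 and 7.19% in KO-1. KO-2 had 9.09, 8.27 and 6.46%, KO-3 had 4.91, 3.23 and 3.18%, and KO-4 had 7.46, 4.36 and 7.21%. All clone libraries were above WT, and the change was called in KO-1, KO-2 and KO-4, at 1.24 ± 0.31, 1.78 ± 0.29 and 1.44 ± 0.30, and was 0.67 ± 0.33 in KO-3. The call was lost without the first or the third KO-1 library (adjusted p up to 0.267) and without the KO-4 library listed first (0.0699), and with limma in all 3 clones (0.0943 to 0.186). Retention of the longer BCL2L1 intron, at 34.6 to 37.4% in WT and 30.2 to 40.9% in the clones, was called in none.

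SPCS2 was the pair that fell, with acceptors 29 nt apart in chr11:74965118-74969639. Pair retention was 79.4, 83.1 and 82.0% in WT, 59.8, 57.4 and 63.5% in KO-1. KO-2 had 60.2, 60.7 and 66.5%, KO-3 had 69.2, 70.7 and 64.8%, and KO-4 had 70.4, 67.6 and 67.9%. No clone library reached the WT range. The changes were -1.56 ± 0.18, -1.42 ± 0.17, -1.04 ± 0.17 and -1.02 ± 0.18, and all 4 calls held without any 1 library. With limma the call held in KO-1, with an adjusted p of 0.0344, and was lost in the other clones, with 0.208 to 0.277. Its split was not called, with changes of -0.22 to 0.15. The shorter SPCS2 intron had 702, 857 and 701 reads counted as unspliced in WT. Whether they came from another spliced form was not tested.

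SERBP1, an mRNA-binding protein that also associates with ribosomes, stood apart in KO-3. Its acceptors lie 18 nt apart in coding sequence, in chr1:67424960-67425082 on the minus strand. Pair retention was 2.42, 1.87 and 1.57% in KO-3 and 0.122, 0.115 and 0.110% in WT, a change of 4.07 ± 0.46. The pair reached the read minimum only through its KO-3 reads, so this change is given as a description. Libraries of the other 3 clones held 0.0260 to 0.265% and were too low in unspliced reads for the test, so the difference between KO-3 and the other clones was not tested. The KO-3 libraries had 58, 48 and 35 unspliced reads at the shorter intron against 6, 7 and 5 in WT. Its inner share was 51.6 to 52.4% in KO-3 and 53.4 to 55.0% in WT, and the split was not called.

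**Figure D5:**
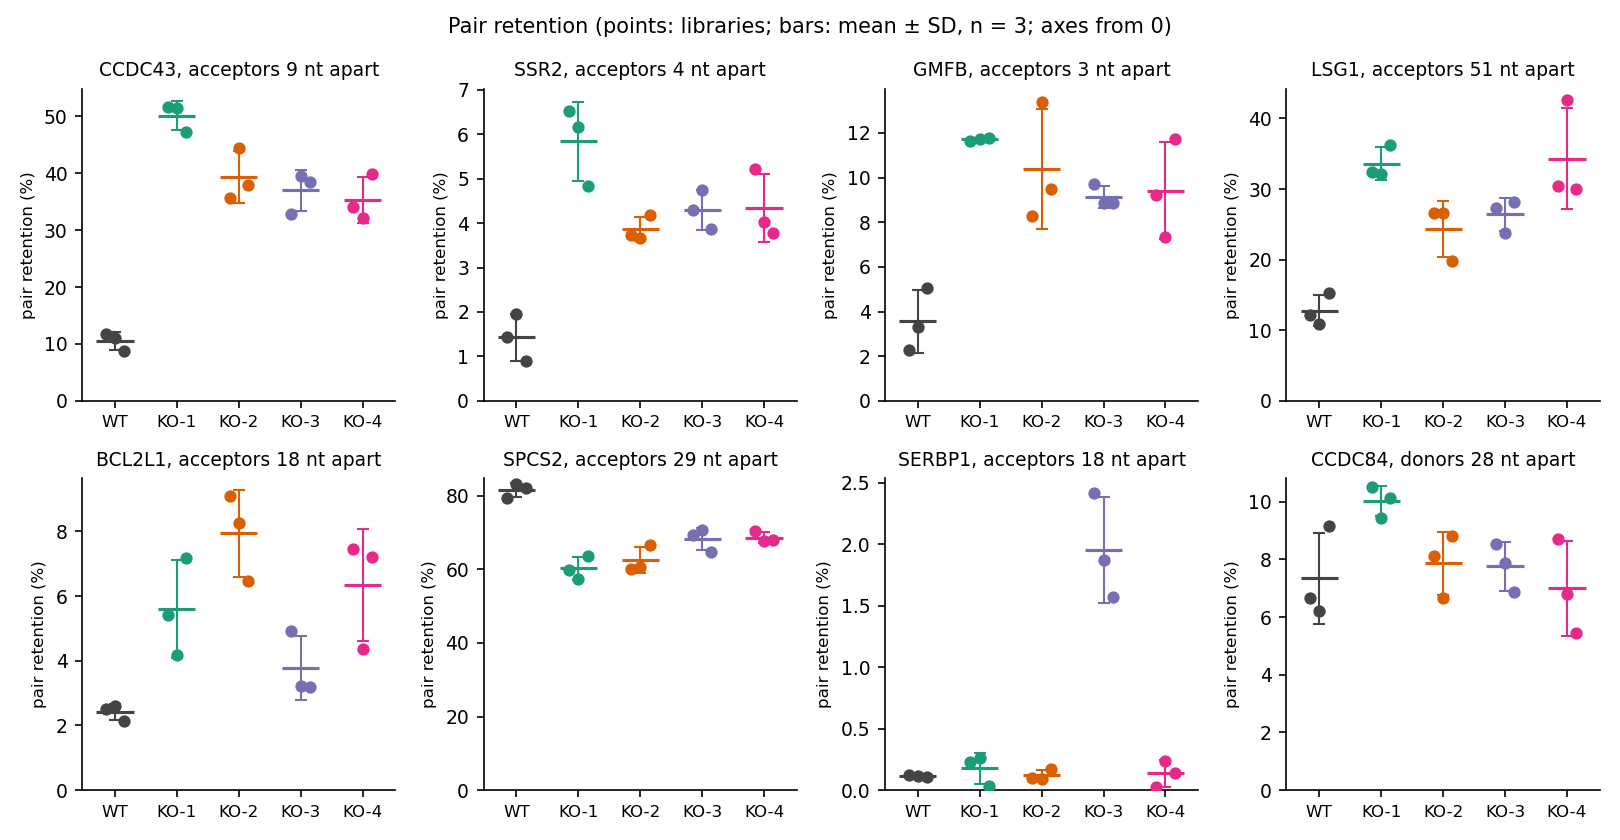
Pair retention in percent (y axis, from 0) by group (x axis) for CCDC43, SSR2, GMFB, LSG1, BCL2L1, SPCS2, SERBP1 and CCDC84. Points are libraries, and lines with bars are the mean ± SD of 3 libraries. CCDC43 runs from 8.81 to 11.8% in WT and from 32.1 to 51.6% in the clones.

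Pairs with a minor-class donor were then counted together, a set chosen after the values of its members were seen. A donor within 1 mismatch of ATATCCTT or GTATCCTT stood at either site of 25 pairs of 24 genes, of 3517 pairs whose donor was read on the transcript strand. Their pair retention rose in 8 of 14 tested pairs for KO-1, 5 of 19 for KO-2, 4 of 17 for KO-3 and 6 of 18 for KO-4, and 0 fell. Over all pairs tested, 1.04, 1.17, 0.431 and 1.75% rose. The median change was 1.497, 0.47, 0.56 and 0.76. Over all pairs tested the median was 0.11, 0.07, 0.006 and 0.15. The split of these pairs was called in 0 of 6, 2 of 11, 0 of 8 and 0 of 9. The calls in KO-2 were LSG1, toward the outer acceptor, and TATDN1, toward the inner donor. LSG1 reached the read minimum only through its KO-2 reads, so its call is a description. TATDN1 changed by -0.10, -0.06 and -0.43 in KO-1, KO-3 and KO-4, toward the outer donor, and was not called there. A match to these letters describes the sequence and does not assign an intron to a spliceosome.

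Gene lists gave few further changes of the split. No pair of the acceptor recognition genes (U2AF, SF3 and later step factors; 6 or 7 pairs tested per clone) or the donor recognition genes (U1 and tri-snRNP proteins; 4 to 6 pairs) was called. In the first list U2AF2, the large U2AF subunit, had donors 12 nt apart with inner shares of 22.9, 21.04 and 20.6% in WT and 18.01 to 22.45% in the clones. In the second, LUC7L, a U1-associated protein, had 24, 24.04 and 26.3% in WT and 12.3 to 25% in the clones, with changes of -0.57 to -0.26 that were not called. Among minor spliceosome genes, CCDC84 was 1 of 3 pairs tested in each clone, and ZMAT5 and SCNM1 were not called.

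Genes known for close alternative sites, such as HNRNPK, ARL6IP4 and SMARCA4, had no call among 16 to 18 pairs tested. HNRNPK, an RNA-binding protein, had acceptors 60 nt apart with inner shares of 35.4, 39.3 and 37.1% in WT, 32.0, 34.8 and 32.9% in KO-2, and 37.7, 37.2 and 38.3% in KO-4. Genes with a well known minor-class intron had 1 call in KO-1, RPL18, of 8 pairs tested, 1 in KO-2, LSG1, of 14, and 0 of 10 and 0 of 11 in KO-3 and KO-4. The LSG1 pair entered the test only through its KO-2 reads, as given above. The called RPL18 introns start GTGAGGCT and end in CAG, so this pair is not a match to the minor-class donor, while the LSG1 pair is. In the genes of this list, introns of any kind rose in 28 of 166, 21 of 194, 20 of 186 and 18 of 191 tests, and fell in 5, 5, 3 and 5. Over all introns tested 1.29, 1.3, 0.558 and 1.54% rose and 0.155 to 0.429% fell. The list was drawn up with earlier results of these data known, so its counts are a description and not a test. Of their member introns 3 of 21, 2 of 32, 2 of 25 and 4 of 32 rose and 3, 3, 2 and 2 fell.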

How the data were processed

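PolyA RNA from 3 libraries of each of 5 groups was read with a directional kit, per the labels. Per the submitters' processing notes, cutadapt 2.0 and STAR 2.7.1a were used, with hg38. Which program produced the junction counts, and with what strand setting, is not given in the sources used here. Deposited tables give, per the file headers, raw retained (unspliced) and spliced junction read counts for 3 libraries per group, effective lengths, and the authors' p-values, FDR and difference of inclusion fractions. Every listed intron has at least 20 junction reads in every library of its table. Libraries carry no number in the tables and are named by their order in them.

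Members and pairs were found by position. Reads at both sites of a pair, or retained and spliced reads of an intron, entered a quasi-binomial model with dispersions moderated by limma 3.58.1 (squeezeVar with a trend, floor 1) in R 4.3.3, with the data.table package, version 1.17.8. Python 3.11.15, pandas 2.3.3, numpy 2.4.6 and matplotlib 3.10.9 made summaries and figures. Each comparison used only its 6 libraries, each feature needed a mean of 10 reads of each kind, and p-values were adjusted by Benjamini-Hochberg over all features tested. Retention percentages divide reads by the deposited effective lengths, the tests use the counts, and inner shares need no length. Errors of changes are SE. Reads carry no molecular identifiers, so counting error assumes independent reads, and p-values measure the spread between these libraries of 1 WT line and 1 isolate per clone.

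On simulated data, 63 to 85% of 2-fold and 98 to 99% of 4-fold split changes were recovered, with 5 to 9 unchanged pairs called, and for retention 21 to 29% and 80 to 88%. Each simulation held 200 changed features, more than the split calls made in any clone, and recovery with fewer changes was not simulated. Its noise was drawn from dispersions fitted by the same model, so it cannot check that model's error rate on the real counts. Of 5236 pairs, 97.7% had their window read from GENCODE v29 transcripts. Members, lists and tests were chosen with earlier results of these data known. Named pairs, at most 1 per gene and class, were those with the largest split changes called in 3 clones or in 1 clone, with retention called in 3 clones, with the smallest p among clones, with most reads in 4 site classes, and with the smallest p in each list. Alternatives were limma, read minimums, centring, linked pairs and left-out libraries. An edgeR fit was not run. One named pair is not reported here.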

Additional observations from a re-analysis of the deposited data

Results flagged for a closer look

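The split of 11 named pairs differed among the 4 clones, tested over the 12 clone libraries with the quasi-binomial F test and adjusted over 1316 pairs. RPL18, LRBA, PARK7 and TATDN1 were named for the smallest p in this same test. SMARCB1, HNRNPC, DUS1L, PBK and RPL15 were named for calls against WT that use the same clone libraries. The 11 pairs are therefore a description, and over all pairs tested 58 of 1316, or 4.41%, differed. The adjusted p was 3.5e-11 for RPL18, where KO-1 stood apart with 99.1 to 99.4% inner share against 99.8 to 99.9% in the other clones. It was 2.36e-09 for LRBA and 1.1e-08 for PARK7, whose values by library are given above. TATDN1, with donors 76 nt apart, had 4.45e-08, with mean inner shares of 37.6% in KO-2 and 22.96% in KO-4. SMARCB1 had 1.52e-07, with KO-3 the lowest clone at a mean of 44.7%. The acceptor pair of RPL15, 13 nt apart, had 6.56e-07, with 0.847 to 1.06% in KO-4 and 0.195 to 0.482% in the other clones. PBK, a mitotic kinase with donors 58 nt apart, had 8.58e-06, with 64.9 to 68.3% in KO-3 and 72.5 to 78.4% in the other clones. HNRNPC had 1.99e-05, with KO-1 the highest clone at a mean of 35.5%. HMGA1, an architectural chromatin protein with donors 33 nt apart, had 3.48e-05, with 69.9 to 71.0% in KO-2 and 73.0 to 75.1% in KO-1. HNRNPK had 0.00428. DUS1L, a tRNA dihydrouridine synthase gene with donors 61 nt apart, had 0.00894, with 1.13 to 1.55% in KO-2 and 2.34 to 4.53% in the other clones.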

How the results depend on the processing

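No named call changed direction: over 949 refits of 94 named calls, 760 kept the call, 189 lost it and 0 turned. Of 23 named split calls, 12 held in every fit without 1 library. The limma fit gave lower counts throughout, and the cause was not tested. With it the split counts, inner then outer, were 0 and 0 in KO-1, 1 and 1 in KO-2, 0 and 0 in KO-3, then 1 and 0 in KO-4. Retention rose in 2, 1, 3 and 0 members and fell in 0, 1, 0 and 0, pair retention was called in 8, 1, 3 and 3 pairs, and 7 pairs differed among clones. With no filter on reads, which tests more pairs, KO-1 had 2 outer calls, KO-2 1 inner and 4 outer, KO-4 6 inner and 4 outer, and 35 pairs differed among clones. Retention then fell in 16 members in KO-1, rose in 65 in KO-2 and fell in 16 in KO-3. At a mean of 50 reads, KO-1 had 1 inner call. Retention then rose in 13 and fell in 3 members in KO-1 and rose in 10 and fell in 5 in KO-3, and pair retention was called in 9 pairs in KO-3. Centred on the median intron, retention fell in 22 members for KO-1, 33 for KO-2 and 43 for KO-4, and rose in 24 in KO-2 and 24 in KO-4. By the FDR of the authors' deposited tables, rises numbered 62, 88, 39 and 119 and falls 21, 43, 23 and 36. In WT, median retention of the longer and shorter intron and median inner share were 15.1, 3.05 and 52.8% at a mean of 50 reads, and 12.5, 4.70 and 58.5% for sites up to 20 nt apart.

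Without 1 library, split calls ranged from 1 to 3 inner and 1 to 2 outer for KO-1, 1 to 11 and 3 to 16 for KO-2, 2 to 3 and 0 to 5 for KO-3, and 5 to 9 and 5 to 15 for KO-4. Retention rose in 15 to 64, 20 to 87, 10 to 28 and 22 to 135 members and fell in 4 to 12, 11 to 23, 4 to 12 and 7 to 17. Pair retention calls ranged from 13 to 98, 19 to 62, 7 to 18 and 16 to 125, and pairs that differed among clones from 45 to 66. The highest counts of rises and of pair retention came without the third WT library listed. The lowest split counts came without the second KO-1 library (1 inner), the third KO-2 library (1 inner, 3 outer), the first KO-3 library (0 outer) and the first KO-4 library (5 inner, 5 outer). Without the second WT library KO-2 had 2 inner and 6 outer calls and KO-4 had 6 outer, and without the first WT library KO-2 had 3 inner. Without the second library of a clone, rises numbered 15 for KO-1, 20 for KO-2 and 25 for KO-4, and without the first 17, 23, 10 and 22 in the 4 clones.

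No paired analysis was possible because the tables carry no replicate numbers, and no replicate block was fitted. The planned edgeR fit was not run: edgeR is used here only on columns recorded as counts, and these columns, with the numbers of 3 libraries in a cell, could not be recorded so. Few reads at a site, as at the outer LSG1 acceptor in WT, limit the tests there.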

Other observations

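Pair retention was also called higher in 3 clones for 5 pairs of 4 genes, named after their values were seen. CD44, a cell surface receptor for hyaluronan, had 2 acceptor pairs 3 nt apart, with changes of 1.49, 0.97, 0.27 and 1.03 in KO-1 to KO-4 at one and 0.84, 0.64, 0.46 and 0.79 at the other. CLDN7, a tight junction claudin with donors 26 nt apart, had changes of 1.26, 1.38, -0.55 and 0.99. HARS, the cytoplasmic histidine tRNA synthetase gene, had 1.20, 1.13, 0.72 and 1.23 at donors 60 nt apart. RPL36, a ribosomal protein gene, had smaller changes of 0.27, 0.33, 0.14 and 0.42. In each of these 5 pairs KO-3 was the clone without a call, and the difference between KO-3 and the other clones was not tested for pair retention.

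Among pairs that differed between clones, SPINT1, a membrane inhibitor of serine proteases with donors 92 nt apart, had a mean inner share of 17.3% in KO-3 and 5.82 to 6.29% in the other clones, with an adjusted p of 2.96e-06.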
